A study of Homo sapiens with 2 samples.

Results

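The gamma-tubulin ring and centrosomal tubulin genes comprised 10 genes: the gamma-tubulin genes TUBG1 and TUBG2, the ring scaffold genes TUBGCP2, TUBGCP3, TUBGCP4, TUBGCP5 and TUBGCP6, the ring attachment gene NEDD1, the delta-tubulin gene TUBD1 and the epsilon-tubulin gene TUBE1. Every probe set to which the platform annotation gave exactly 1 gene symbol from this list was taken, which gave 22 of the 54675 probe sets and all 10 genes, of 19775 genes named in this way. No probe set named 1 of these genes together with another gene. The arrays were Affymetrix Human Genome U133 Plus 2.0 and carried RNA of CL1-5, a human lung adenocarcinoma line described by the submitters as highly invasive. The culture labelled analogue 3 received 0.11 µM of a desmosdumotin C analogue with iodo, tripropyl and methoxy substituents for 24 h, the concentration that the submitters also report as its median effective dose in these cells. The control culture received DMSO, given in the labels as 0.05 µg/mL, for the same 24 h. The labels do not give the vehicle of the analogue 3 culture. Each treatment was represented by 1 culture of this single cell line and 1 array. Differences are therefore given without any test. The comparison asked how transcript levels in the treated culture differed from those in the control.

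Gamma-tubulin is the template from which cells start new microtubules. It is held in an open ring by the GCP proteins, which the TUBGCP genes encode, and NEDD1 brings the finished ring to the centrosome and to the sides of existing spindle microtubules. Delta- and epsilon-tubulin do not nucleate microtubules in this way and are needed for the stable triplet microtubules of centrioles. The desmosdumotin analogue was added to dividing tumour cells, in which centrosomes and spindles are rebuilt at each division.

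Intensities are multiples of the array median, which was 1 on both arrays. A gene counted as measured when its brightest probe set reached an intensity of 8 (log2 3, the floor) on at least 1 array. Values below the floor were raised to it before the log2 difference, analogue 3 minus DMSO, was taken, and a difference of at least 2-fold was counted. Of the 10 genes, 9 were measured, each with both arrays reaching the floor, and TUBGCP6 was not. Across all 8523 measured genes, 319 were at least 2-fold higher (3.74%), 334 lay 2-fold or more below DMSO (3.92%), and the log2 differences had a median of -0.05. Which direction held more genes turned with the scaling, with 355 higher and 290 lower after median centring. The SD of 1 probe set, from pairs of probe sets of the same gene in 2874 genes, was 0.23 on the log2 scale. It measures only the disagreement between probe sets of one gene, and error between cultures, RNA preparations or hybridisations is not part of it. The 18 spiked-in control probe sets differed by between -0.14 and 0.17. For GAPDH the 3′ signal was 1.18 times the 5′ signal with analogue 3 and 1.21 times with DMSO, and for ACTB 10.0 and 11.8 times. The ACTB signal was thus much weaker at the 5′ end on both arrays. Whether a loss of 5′ signal affected the values of single probe sets was not tested. KRT8, KRT18 and VIM reached the floor on both arrays, while KRT7, KRT19, EPCAM, CDH1 and all 6 lung epithelial markers on the array were below it on both. All 4 leukocyte and all 6 fibroblast markers on the array were also below the floor. Of 4 endothelial markers only PECAM1 reached it, at 15.7 with analogue 3 and 11.4 with DMSO, while VWF, CDH5 and TEK were at most 1.76. In such bulk RNA, fewer cells that express a gene and less RNA per cell cannot be told apart.

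Promoters are shown for TUBG1 and TUBE1, which had the highest and lowest log2 differences, for TUBD1, the next highest, and for TUBG2, the paralog of TUBG1. The choice followed these differences, so motifs in them are to be read with the counts over all listed promoters given below. Each is the 250 bases before the RefSeq transcription start (GRCh38.p14), 5′ to 3′ on the gene's own strand. TUBG1 is chr17:42609433-42609682 on the plus strand, TUBG2 chr17:42659034-42659283 on the plus strand, TUBD1 chr17:59892944-59893193 on the minus strand and TUBE1 chr6:112087483-112087732 on the minus strand. Capitals mark the motif letters described after the sequences.
TUBG1: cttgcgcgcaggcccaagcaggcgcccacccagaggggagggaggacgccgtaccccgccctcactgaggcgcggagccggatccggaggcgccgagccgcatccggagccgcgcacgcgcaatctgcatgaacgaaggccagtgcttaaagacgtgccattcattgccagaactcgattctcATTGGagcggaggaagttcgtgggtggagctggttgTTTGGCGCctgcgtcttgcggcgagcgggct
TUBG2: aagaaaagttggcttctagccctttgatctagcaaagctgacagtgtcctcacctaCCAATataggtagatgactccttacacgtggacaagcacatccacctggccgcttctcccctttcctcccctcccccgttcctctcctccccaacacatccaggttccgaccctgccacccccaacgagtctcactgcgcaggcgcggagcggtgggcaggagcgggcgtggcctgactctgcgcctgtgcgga
TUBD1: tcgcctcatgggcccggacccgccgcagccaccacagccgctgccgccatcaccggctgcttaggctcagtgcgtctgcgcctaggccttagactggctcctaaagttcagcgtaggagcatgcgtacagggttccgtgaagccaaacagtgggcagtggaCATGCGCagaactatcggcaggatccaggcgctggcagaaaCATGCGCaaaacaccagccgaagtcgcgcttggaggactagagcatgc
TUBE1: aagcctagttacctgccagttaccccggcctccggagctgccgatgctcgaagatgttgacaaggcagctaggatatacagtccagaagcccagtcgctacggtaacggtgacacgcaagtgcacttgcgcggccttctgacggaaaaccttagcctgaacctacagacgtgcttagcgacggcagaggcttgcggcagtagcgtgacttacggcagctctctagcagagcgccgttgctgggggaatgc

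Motifs that recur in cell cycle promoters were searched on both strands: CCAAT, the cell cycle homology region cores TTTGAA and TTCGAA, and the E2F letters GCGGGAA, TTTGGCGC, TTTCCCGC, TTTGCCGC and TTTCGCGC. The reverse complement of GCGGGAA lies within TTTCCCGC, so these 2 can share a match. The TUBG1 window held an E2F match, TTTGGCGC, starting 31 bases before the start site, and a CCAAT match in reverse orientation, ATTGG, starting 67 bases before it. The TUBG2 window held CCAAT starting 194 bases before the start site and no E2F letters. The TUBE1 and TUBD1 windows held none of these letters. In the TUBD1 window, CATGCGC, the core of the motif of the factor NRF1, occurred 89 and 48 bases before the start site; this motif was picked after the sequences had been read. Over the 11 promoters listed for 9 of the 10 genes, 3 held CCAAT (TUBG1, TUBG2 and TUBGCP5) and 3 held E2F letters (TUBG1, 1 of the 2 promoters of NEDD1 and 1 of the 2 of TUBGCP2). TTTGAA and TTCGAA occurred in none of the 11. Among 35116 promoter windows of the same length, 32% held CCAAT, 6.79% the E2F letters, 13.3% TTTGAA, 1.19% TTCGAA and 3.77% CATGCGC. The E2F letters are rich in G and C. The 11 windows ran from 54.4% to 76.4% G or C, beside a median of 58% over all windows. These shares were not matched for G and C content. These matches are descriptions of letters, and no binding was measured.

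Both gamma-tubulin genes were measured, and they differed from each other. TUBG1, which encodes the gamma-tubulin of most dividing cells, had an intensity of 354.8 with analogue 3 and 146.9 with DMSO. It was thus 2.42-fold higher in the treated culture, a log2 difference of 1.27 or 5.59 times the SD of 1 probe set. Of the 8523 measured genes, 186 (2.18%) had a difference at least as high. TUBG2, the closely related paralog, had an intensity of 10.2 with analogue 3 and 10.5 with DMSO. Its log2 difference was -0.04, within the spread of 1 probe set, and it turned to 0.01 when differences were centred on their median and to 0.08 after loess removal or quantile normalization. The differences of the 2 paralogs lay 1.31 apart on the log2 scale, which is 4.07 times the SD of the difference between 2 probe sets of one gene. That SD does not cover the spread between different genes. Over all measured genes the log2 differences had quartiles of -0.36 and 0.24. Each gene had 1 probe set only, so neither value could be checked against another part of the transcript. TUBG2 was also close to the floor on both arrays. The sequences of the 2 paralogs are close, and whether their probe sets share signal was not tested. TUBG1 and TUBG2 are next to each other among protein-coding genes in the RefSeq order of chromosome 17, with no protein-coding gene starting between them.

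**Figure D1:**
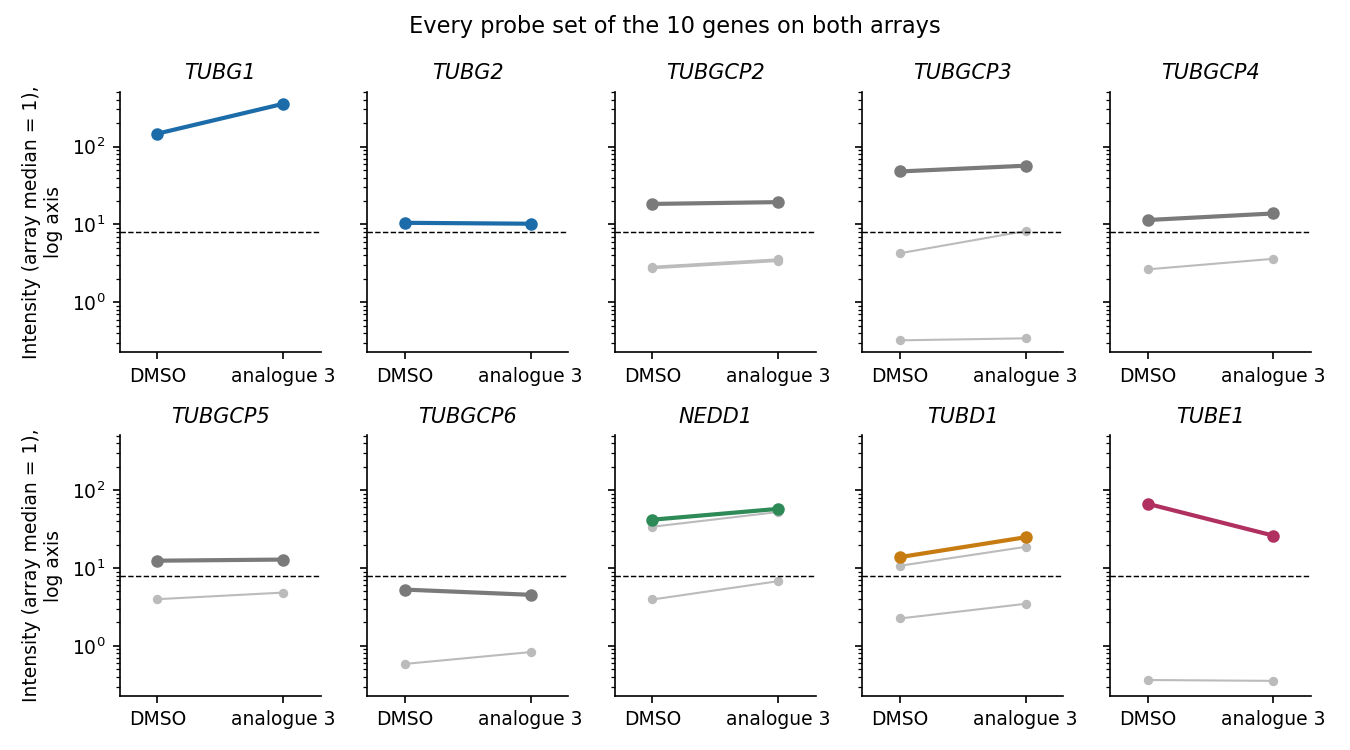
Intensity (log axis, array median = 1) of all 22 probe sets of the 10 genes on the DMSO and analogue 3 arrays, with 1 line per probe set. Coloured or dark thick lines are the brightest probe set of each gene, pale thin lines the others, and the dashed line is the floor of 8; TUBG1 climbs from 146.9 to 354.8, TUBE1 drops from 66.9 to 26.1, and both TUBGCP6 lines stay below the floor.

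The log2 differences of the 4 measured ring scaffold genes reached at most 0.28 in their brightest probe sets. The GCP2 and GCP3 proteins form the small complex with gamma-tubulin from which most of the ring is built, and GCP4, GCP5 and GCP6 occupy particular places in the ring. TUBGCP2 had an intensity of 19.4 with analogue 3 and 18.4 with DMSO, a log2 difference of 0.08. TUBGCP3 had an intensity of 56.9 with analogue 3 and 48.0 with DMSO, a difference of 0.25. These are 0.339 and 1.08 times the SD of 1 probe set. TUBGCP4 had an intensity of 13.9 with analogue 3 and 11.4 with DMSO, a difference of 0.28. TUBGCP5 had an intensity of 12.8 with analogue 3 and 12.4 with DMSO, a difference of 0.05. None of these 4 genes reached 1.5-fold, which 77.5% of all measured genes did not reach either, and their median difference was 0.16. Of all measured genes, 47.4% had a difference no larger in size than that of TUBGCP4. TUBGCP6, the largest of the scaffold proteins, stayed under the floor, at 4.52 (analogue 3) and 5.28 (DMSO) in its brighter probe set and at 0.832 and 0.586 in the other. At these levels no difference was read for TUBGCP6.

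Other probe sets of the scaffold genes were dim. TUBGCP2 had a pair of further probe sets, at 3.57 with analogue 3 against 2.87 with DMSO and at 3.40 against 2.74. TUBGCP3 had a probe set at 8.25 with analogue 3 and 4.27 with DMSO, whose difference of 0.95 without the floor shrank to a bound of 0.04 with it, and another at 0.345 and 0.325. The dimmer probe set of TUBGCP4 read 3.62 with analogue 3 and 2.65 with DMSO, and that of TUBGCP5 read 4.83 and 3.98. Of the 12 probe sets of the 5 scaffold genes, 11 had the higher value with analogue 3, and 7 of these 11 were below the floor on at least 1 array. The exception was the brighter probe set of TUBGCP6. Of all 41097 probe sets with 1 gene name, taken the same way without a floor, 44.5% had the higher value with analogue 3. The 12 probe sets come from 5 genes and most are dim, so nothing is read from their count.

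NEDD1, the WD40-repeat protein that attaches the ring, was a little higher with analogue 3 in each of its 3 probe sets. The brightest read 57.5 with analogue 3 and 41.7 with DMSO, which is 1.38-fold higher and 0.46 on the log2 scale. The next read 52.4 with analogue 3 and 33.9 with DMSO, a difference of 0.63, and the dimmest read 6.77 and 3.94, both below the floor. The brightest probe set was 2.03 times the SD of 1 probe set from 0, and the next 2.76 times. Of all measured genes, 13.5% had a difference at least as high as the brightest probe set of NEDD1.

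The delta- and epsilon-tubulin genes lay on opposite sides of 0. TUBD1 had an intensity of 24.9 with analogue 3 and 13.8 with DMSO in its brightest probe set, a 1.80-fold difference. Its next probe set read 18.7 with analogue 3 and 10.7 with DMSO, and the dimmest read 3.47 and 2.25. The log2 differences were 0.85, 0.81 and 0.63 without a floor, so the 3 probe sets were close to one another, and the 2 at or above the floor were 3.73 and 3.55 times the SD of 1 probe set from 0. TUBD1 did not reach 2-fold. TUBE1 had an intensity of 26.1 with analogue 3 and 66.9 with DMSO, a 2.56-fold lower value and a log2 difference of -1.36, or 5.97 times that SD. It was 1 of 145 measured genes (1.70%) with a difference at least as low. The other probe set of TUBE1 read 0.355 with analogue 3 and 0.364 with DMSO, far below the floor, so the TUBE1 value rests on 1 probe set. When a gene was taken as the median of its probe sets, TUBE1 dropped below the floor and no gene of the group was counted as lower. The differences of TUBD1 and TUBE1 lay 2.21 apart on the log2 scale.

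**Figure D2:**
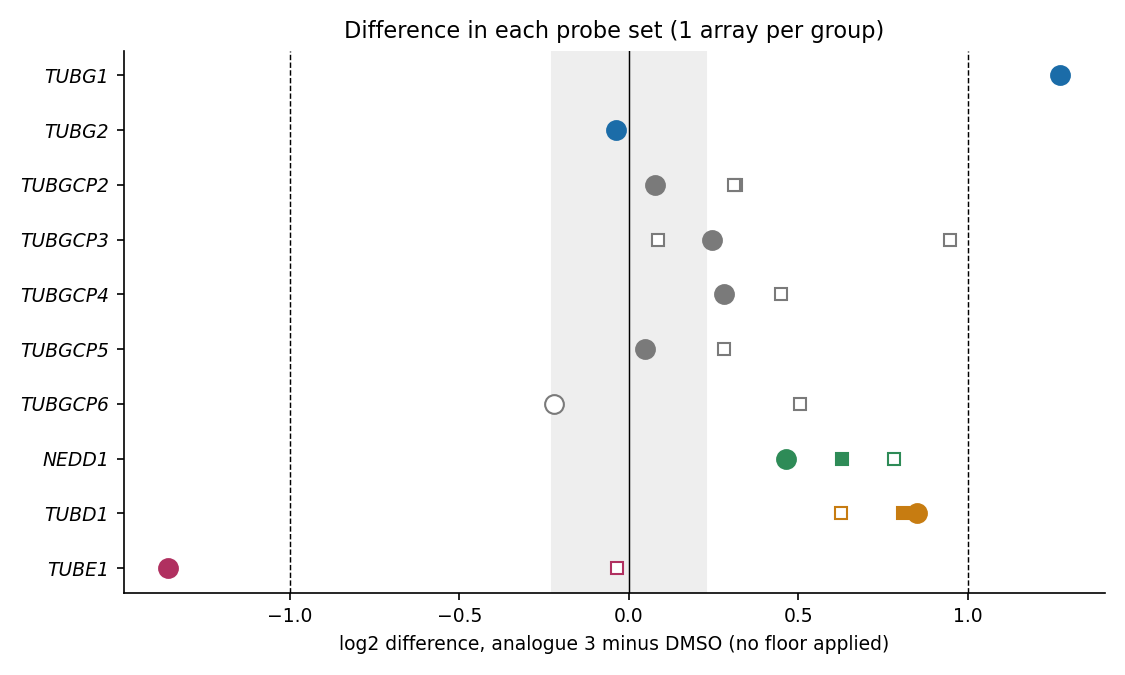
Log2 difference, analogue 3 minus DMSO and without a floor, for each of the 22 probe sets, 1 row per gene. Circles are the brightest probe set of a gene and squares the others; filled symbols reached the floor on both arrays and open symbols did not; the grey band is 1 SD of a probe set (0.23) on either side of 0 and the dashed lines are 2-fold; TUBG1 (1.27) and TUBE1 (-1.36) are the circles outside the dashed lines.

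Over the 9 measured genes, 1 was at least 2-fold higher (TUBG1), where 3.74% of all measured genes were, and 1 was at least 2-fold lower (TUBE1), where 3.92% were. At a threshold of 1.5-fold, 2 were higher (TUBG1 and TUBD1) against a background of 9.6%, and 1 was lower against 12.9%. The median log2 difference of the 9 was 0.25, beside -0.05 over all measured genes. Of the 9, 7 lay above 0 and 2 below. Among all measured genes 44.5% lay above 0, and among those that reached the floor on both arrays 45.7%. Of the 9, 6 differed by less than 1.5-fold, as did 77.5% of all measured genes. Counts this small describe the 9 genes and set no rate for the group.

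**Figure D3:**
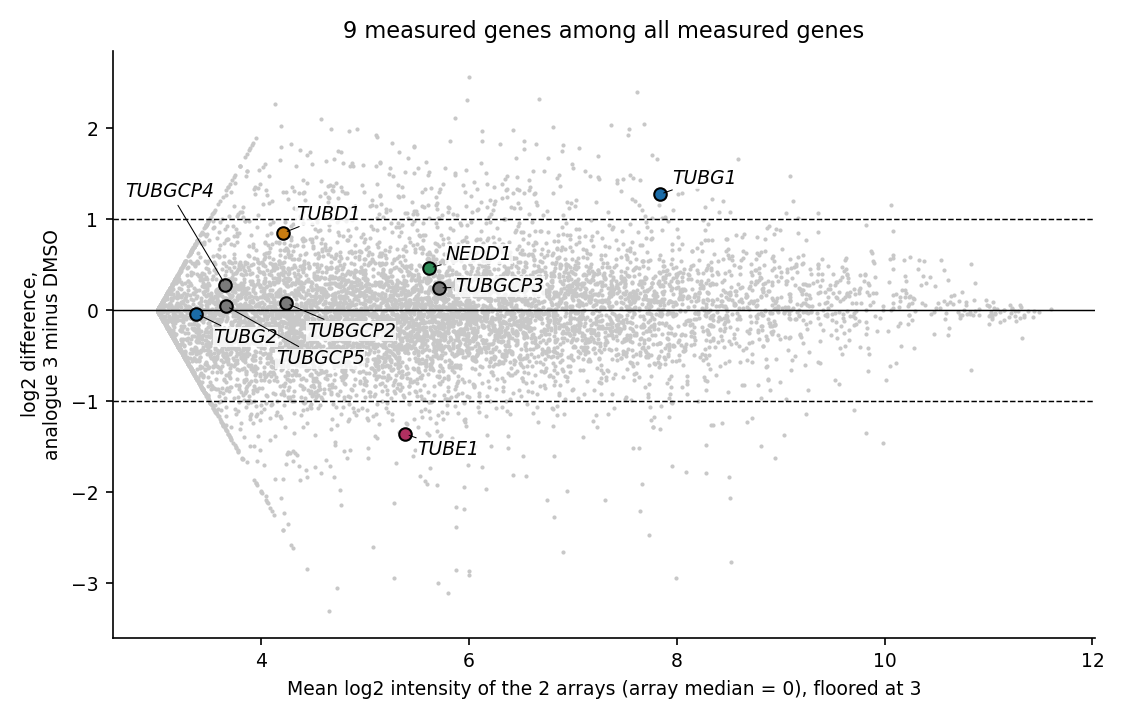
Log2 difference, analogue 3 minus DMSO, against the mean log2 level of the 2 arrays for 8523 measured genes (grey), with the 9 measured ring and centrosomal tubulin genes in colour and dashed lines at 2-fold. TUBG1 and TUBE1 lie outside the dashed lines and TUBD1 just inside, while TUBG2 and the 4 measured scaffold genes lie in the dense band around 0.

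The small subunits and attachment factors of the ring were close to level as a list. It held MZT1, MZT2A, MZT2B, NME7, CDK5RAP2, PCNT, AKAP9, CEP192, NIN, NINL, PCM1, CEP57 and CEP72, of which 11 were on the array by name and all 11 were measured. None was 2-fold higher or lower, beside 3.74% and 3.92% of all measured genes, and the median log2 difference was 0.15. All 11 reached the floor on both arrays, with 7 above 0 and 4 below, beside 45.7% above 0 among all such genes. The smallest differences were in NIN, a centrosomal anchoring protein (26.0 with analogue 3, 24.8 with DMSO), and in MZT2B, a small ring protein (16.2 and 14.7). The largest were singled out after their values were seen. MZT1, the small protein that binds the GCP proteins, was 1.70-fold higher, at 61.4 with analogue 3 and 36.0 with DMSO. CEP192 and CDK5RAP2, which recruit the ring to the pericentriolar material, were 1.66- and 1.65-fold higher, and the pericentrin gene PCNT 1.56-fold. CEP192 read 10.1 with DMSO, close to the floor. CDK5RAP2 was at 0.72 on the log2 scale in its brightest probe set and at 0.40 in another. On the other side, NINL was 1.49-fold lower and AKAP9, which anchors rings at the Golgi, 1.39-fold lower.

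Augmin, the 8-subunit complex that binds NEDD1 and places rings on existing spindle microtubules, had 7 subunits on the array by name, and all were measured. HAUS7 alone was counted as at least 2-fold higher, beside 3.74% of all measured genes, at 50.9 with analogue 3 and 22.0 with DMSO (2.31-fold), in a probe set whose type can share sequence with other transcripts. HAUS8, at 15.4 with analogue 3 and 4.82 with DMSO, had a bound of at least 1.92-fold higher, and it is named after its values were seen. The median of the 7 was 0.61, and over the 6 without HAUS8, which reached the floor on both arrays, it was 0.47 with 5 above 0. Of all genes that reached the floor on both arrays, 45.7% lay above 0. HAUS2 read 71.0 with analogue 3 and 77.5 with DMSO in its brightest probe set (-0.13), and its 3 other probe sets ran from -0.27 to 0.70. HAUS5 differed by 0.24. HAUS6 disagreed between its 2 probe sets, at 0.33 in the brightest and 1.14 in the other; it is named because of this disagreement, after its values had been read. The augmin count of 1 was 0 without probe sets of the shared types or with a floor of log2 5, and 2 with a floor of log2 1.

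Centriole assembly genes act where delta- and epsilon-tubulin do. The array named 26 of them and 24 could be measured. Of these, 5 passed 2-fold upward and none downward, beside 3.74% and 3.92% of all measured genes, and their median was 0.49. For 6 of the 24, CEP152 among them, only the analogue 3 array reached the floor, which fixes their sign. Of the other 18, which reached it on both arrays, 14 lay above 0 and 4 below, with 4 past 2-fold upward and a median of 0.43. Among all genes that reached the floor on both arrays, 45.7% lay above 0. The centriole length factor gene CPAP, listed on the platform as CENPJ, had the largest difference, at 42.7 with analogue 3 and 16.2 with DMSO (2.64-fold). PLK4, the kinase that starts centriole duplication, read 32.2 and 13.2 (2.43-fold; log2 1.28, and 1.40 in its other probe set). STIL, its partner, read 121.8 and 51.9 (2.35-fold). CEP152, which recruits PLK4, was at least 2.07-fold higher against the floor. TEDC1, whose product forms a complex with those of TEDC2, TUBD1 and TUBE1, read 18.4 with analogue 3 and 9.0 with DMSO (2.05-fold). TEDC2 was below the floor on both arrays, at 5.27 and 1.87, and is named for its place in that complex. Within this complex, then, TEDC1 was 2.05-fold higher, TUBD1 1.80-fold higher and TUBE1 2.56-fold lower. Nearest to level were CEP63 at 0.11 and POC1B at 0.28. The count of 5 was 1 of 9 genes with a floor of log2 5.

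Spindle microtubule assembly factors gave the highest median of the lists, 1.07 over 11 measured genes, of which 7 were at least 2-fold higher, beside 3.74% of all measured genes. The 10 that reached the floor on both arrays all lay above 0, as did 45.7% of all such genes. DLGAP5, a spindle microtubule-binding protein, was 3.63-fold higher, and TACC3, a spindle protein that works with CKAP5, 3.34-fold. The motor gene KIF11 was 2.80-fold higher, the kinase gene AURKA 2.69-fold, TPX2, the activator of Aurora A, 2.44-fold, and RCC1, which generates Ran-GTP at chromosomes, 2.10-fold. Nearest to level among these 10 were NUMA1 at 0.32 and MAPRE1 at 0.57, the latter named after its values were seen. PLK1 read 9.82 with analogue 3 and 2.92 with DMSO, a bound of at least 1.23-fold higher that gives it no place in this order. Several of these genes were already known from earlier results on these 2 arrays to be higher, so the list is no independent evidence. TUBG1, at 1.27, lay inside the range of these 10 (0.32 to 1.86), and the measured scaffold genes, at 0.05 to 0.28, lay below all 10. TUBG1 also lay inside the range of the 18 centriole genes that reached the floor on both arrays (-0.77 to 1.40). It lay above the highest such small subunit or attachment gene (0.77) and augmin gene (1.21). TUBGCP4 and TUBGCP5 were close to the floor. With a list known in part beforehand, these positions are description only.

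The alpha- and beta-tubulin genes, whose products form the microtubule itself, had a median of 0.58 over 10 measured genes, none of them counted as 2-fold higher or lower, beside 3.74% and 3.92% of all measured genes. The value of TUBA4A, at 15.4 with analogue 3 and 4.83 with DMSO, is a bound of at least 1.93-fold higher and can be compared with no other gene. The 9 genes that reached the floor on both arrays ran from -0.21 (TUBB2B) to 0.94 in their brightest probe sets, and TUBA1A was at 0.25. The choice of probe set mattered for the count at 2-fold. TUBB had 2 other probe sets, at 0.94 and 1.03, and TUBB3 had 1 other, at 1.02, so both genes passed 2-fold there. TUBB and TUBB3 are named after these values were seen. The sequences of these genes are close to one another, so their probe sets can share signal. TUBG1 lay above the other 9, the genes measured on both arrays, and TUBE1 below them; no test of the difference is possible with 1 array per group.

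**Figure D4:**
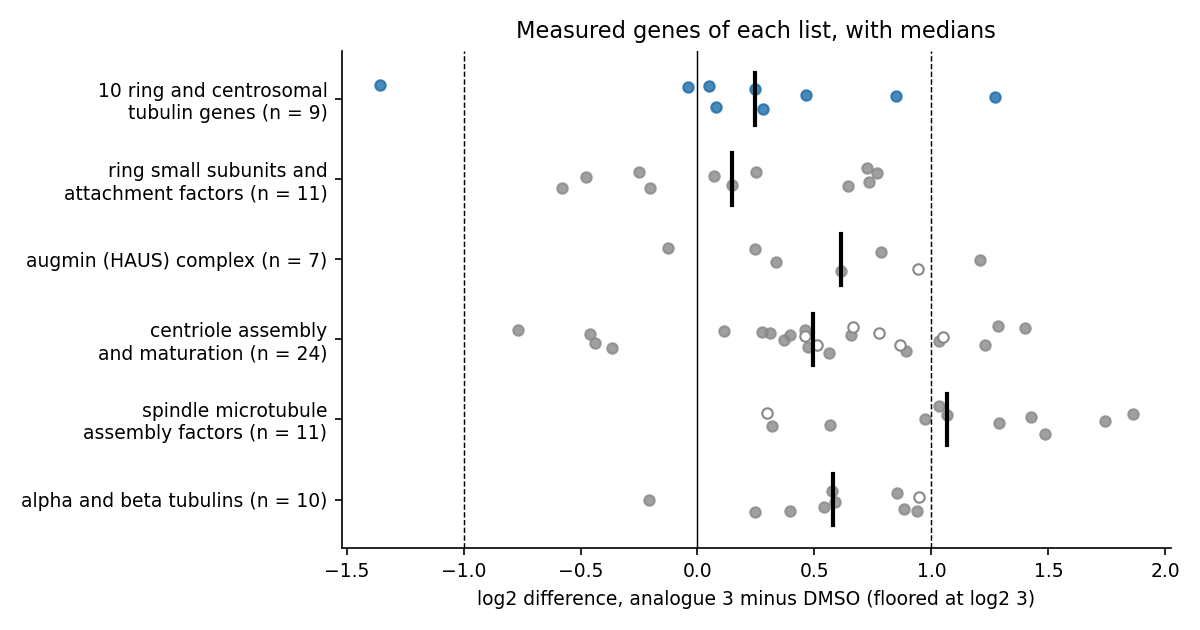
Log2 difference, analogue 3 minus DMSO, of each measured gene of the ring and centrosomal tubulin group (top, 9 genes) and of 5 related lists, with a black bar at each median and dashed lines at 2-fold; open circles are bounds, where the DMSO array was below the floor; vertical scatter within a row has no meaning. The medians are 0.25 for the top row, then 0.15, 0.61, 0.49, 1.07 and 0.58, and the top row has the lowest single value (-1.36).

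The genes next to the 10 in the RefSeq order were compared as a description of position, a comparison chosen after the values were seen. Of 18 distinct protein-coding neighbours outside the group, 10 were measured, of which 1 passed 2-fold upward and none downward, beside 3.74% and 3.92% of all measured genes. The higher one was TMPO, next to NEDD1. RETREG3, on the other side of TUBG1 from TUBG2, read 34.4 with analogue 3 and 45.4 with DMSO (-0.40). FAM229B, next to TUBE1, read 27.0 and 29.5 (-0.13). Both differences were smaller in size than those of TUBG1 and TUBE1. CCN6, on the other side of TUBE1, was below the floor on both arrays. An effect of position was not tested.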

How the data were processed

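The intensity values the authors deposited were linear, with a value for each probe set on each array, made with GCRMA per the submitters' processing notes; its version is not given in the sources used here. GCRMA corrects background by probe sequence, then quantile normalizes and summarises probes. Both columns had a median of 1, so the values appear to have been divided by the median of their array, a step that the labels do not state.

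Of 41097 probe sets with exactly 1 symbol, 41043 matched the RefSeq table (GRCh38.p14) by gene number, and symbols were updated through it; 1801 probe sets had several symbols and were left out. The brightest probe set, by mean log2 intensity, stood for a gene. The floor (log2 3), the 2-fold threshold and the lists were chosen with earlier results of these data known. That earlier work used a floor of log2 5, under which fewer of the 10 genes could be read. The text names all 10 genes and, from each related list, up to 6 genes past 2-fold by size and up to 2 nearest to no difference; exceptions are said to be so. Alternatives were floors of log2 1 and 5, no floor, median centring, loess removal (span 0.3), quantile normalization, the median of probe sets, omission of _s_at and _x_at probe sets, and thresholds of 1.5-fold and 3-fold. A run on simulated data checked only that differences put in were recovered. Its genes had levels raised above the real ones, noise below the SD of 1 probe set, and 1 probe set each. Bounds at the floor were thus hardly exercised, and the choice of the brightest probe set not at all. Python 3.11.15, numpy 2.4.6, pandas 2.3.3 and statsmodels 0.14.6 were used. Probe sequences and proteins were not analysed here. The number of arrays limits the precision.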

Additional observations from a re-analysis of the deposited data

How the results depend on the processing

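No paired analysis was possible because each group had 1 array. Of 61 alternative values of single genes, none crossed the 2-fold line and 60 moved by less than the SD of 1 probe set. The exception was TUBE1, at -1.06 as a bound with a floor of log2 5. Many of the 61 could not move. TUBG1, bright and with 1 probe set, stayed at 1.27 under each other floor, the median of probe sets and omission of _s_at and _x_at probe sets. Settings that left a gene unmeasured are not among the 61, such as the median of probe sets for TUBE1. The tally is therefore no measure of robustness. TUBG1 ran from 1.24 to 1.32, TUBD1 from 0.81 to 0.97 and NEDD1 from 0.46 to 0.63. Only TUBG2 changed sign, under 3 scalings. The counts that follow are to be read beside those over all measured genes. At 1.5-fold, 9.6% of these were higher and 12.9% lower. Higher by 2-fold were 419 of 11158 genes with a floor of log2 1 and 175 of 5050 with a floor of log2 5. Without a floor the count was 379 of 8523, and with the median of probe sets 240 of 6007. Omission of _s_at and _x_at probe sets gave 226 of 5934. At 3-fold, 72 of 8523 were higher and 90 lower. The group's count of higher genes was 2 at 1.5-fold and 0 at 3-fold, and its count of lower genes 0 at 3-fold. With the median of probe sets the count of lower genes was 0 and the median 0.63, over 5 genes only. For small subunits the count higher was 4 of 11 at 1.5-fold. For augmin it was 2 with a floor of log2 1, no floor, loess removal or the median of probe sets, 0 with a floor of log2 5, without _s_at and _x_at probe sets or at 3-fold, and 4 at 1.5-fold; the median was 0.33 with a floor of log2 5 and 0.86 with the median of probe sets. For centriole genes it was 8 of 26 with a floor of log2 1, 1 of 9 with a floor of log2 5, 3 of 14 with the median of probe sets, and 10 higher and 1 lower at 1.5-fold against 0 higher at 3-fold; the median was 0.19 with a floor of log2 5. For spindle factors it was 4 of 6 without _s_at and _x_at probe sets and 2 at 3-fold. For alpha- and beta-tubulins it was 1 with a floor of log2 1, no floor, loess removal or without _s_at and _x_at probe sets, and 5 at 1.5-fold. Over all measured genes, 175 were higher and 135 lower with a floor of log2 5 against 319 and 334; 586 were lower with a floor of log2 1 and 204 with the median of probe sets; 818 were higher and 1099 lower at 1.5-fold, and 72 and 90 at 3-fold. Higher against lower calls over all measured genes were 355 and 290 after median centring, 368 and 268 after loess removal and 341 and 300 after quantile normalization, so the share higher ran from 48.9% as reported to 57.9%. Fewer genes were measured with the higher floor and with the median of probe sets; other causes were not tested. Intensities below the floor limit what can be read for TUBGCP6 and for the dim probe sets.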
